A study of Mus musculus with 6 samples.

Results

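The BCL2 family holds the proteins that decide whether a mitochondrion opens its outer membrane and commits a cell to apoptosis. The set described here holds 10 of its genes, listed by symbol with earlier results of these data known: 3 prosurvival genes (Bcl2, Bcl2l1 and Mcl1), 2 effectors (Bax and Bak1) and 5 genes of BH3-only proteins (Bcl2l11, Bad, Bid, Bbc3 and Pmaip1). Of these 10 genes, 9 had a probe annotated to them alone, among 22180 such genes on the array, and Bax was not analysed here. Where a gene had more than 1 such probe, the one with the highest mean over the arrays stands for it. Values are log2 expression values, so a difference of 1 is a doubling, and levels of different probes are not comparable with each other.

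The series profiled whole mouse hearts of a mixed C57BL/6 x 129S6 strain on 6 Affymetrix arrays. The 3 control samples carried Nkx2.5-Cre alone, a Cre recombinase expressed from a cardiac progenitor gene and thus active in those cells and what descends from them. The other 3 samples, called transgenic here, carried Nkx2.5-Cre together with R26R-miR302-367, a Cre-activated copy of the miR-302-367 microRNA cluster at Rosa26. All 6 samples share the Cre driver, and whole hearts also hold cells outside its lineage. The labels place the harvest at postnatal day 14, but their age field reads E14, and they do not say whether each array came from its own animal, so the p-values reflect spread among arrays that could be partly or wholly technical.

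Prosurvival BCL2 proteins hold the effectors BAX and BAK in check at the mitochondrion. BH3-only proteins respond to stress, loss of growth factors or p53 and bind the prosurvival proteins, and some also activate the effectors directly. Once BAX or BAK forms pores, cytochrome c leaves and caspases are activated. The balance matters in heart muscle, whose cells are densely packed with mitochondria and are rarely replaced after birth.

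The agent of the study is shown first, since a microRNA represses transcripts that pair with its seed, bases 2 to 8 from its 5′ end. The 3′ arms listed by RefSeq on the plus strand of chromosome 3 (GRCm38.p6) read as follows, with the seed in capitals:

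mmu-miR-302b-3p: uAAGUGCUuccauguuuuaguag

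mmu-miR-302d-3p: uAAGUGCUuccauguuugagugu

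mmu-miR-302c-3p: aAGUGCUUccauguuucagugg

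mmu-miR-367-3p: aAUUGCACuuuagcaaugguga

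The miR-302b and miR-302d entries share the seed AAGUGCU. The miR-302c entry begins 1 base later in the same motif, so that its bases 2 to 8 read AGUGCUU, and miR-367 has a different seed, AUUGCAC. Pairing with BCL2 family transcripts was not examined here.

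The arrays were alike in distribution, with medians from 5.45 to 5.54, and arrays of a group correlated at 0.982 to 0.989 over all probes. All 5 microRNA genes of the cluster rose in transgenic samples, by 2.99 to 6.61 on the log2 scale. The cardiac identity of the tissue was plain from the 10 cardiomyocyte markers, whose mean log2 value lay between 12.37 and 12.44 in control and between 12.38 and 12.39 in transgenic samples, with no marker passing the test (limma, adjusted p from 0.0942).

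Within the BCL2 family, the transcript of the BH3-only protein BIM rose 2.48-fold. The prosurvival genes Bcl2 and Bcl2l1 changed by 1.29-fold each in opposite directions, Bcl2 upwards and Bcl2l1 downwards. The other 6 measured members did not pass the test. In all, 2 of 9 members were called higher and 1 lower at a limma adjusted p of 0.05. Over all genes 11.1% were called, 5.35% as higher and 5.76% as lower. The median log2 difference of the 9 members was -0.12, against -0.03 over all genes, and 7 of the 9 differences were negative, where 56.7% of all genes had a negative difference. Control and transgenic values were fully separated for 5 members (Bcl2, Bcl2l1, Mcl1, Bad and Bcl2l11), as they were for 30.9% of all genes. These counts describe the family and do not set it apart from other genes.

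**Figure D1:**
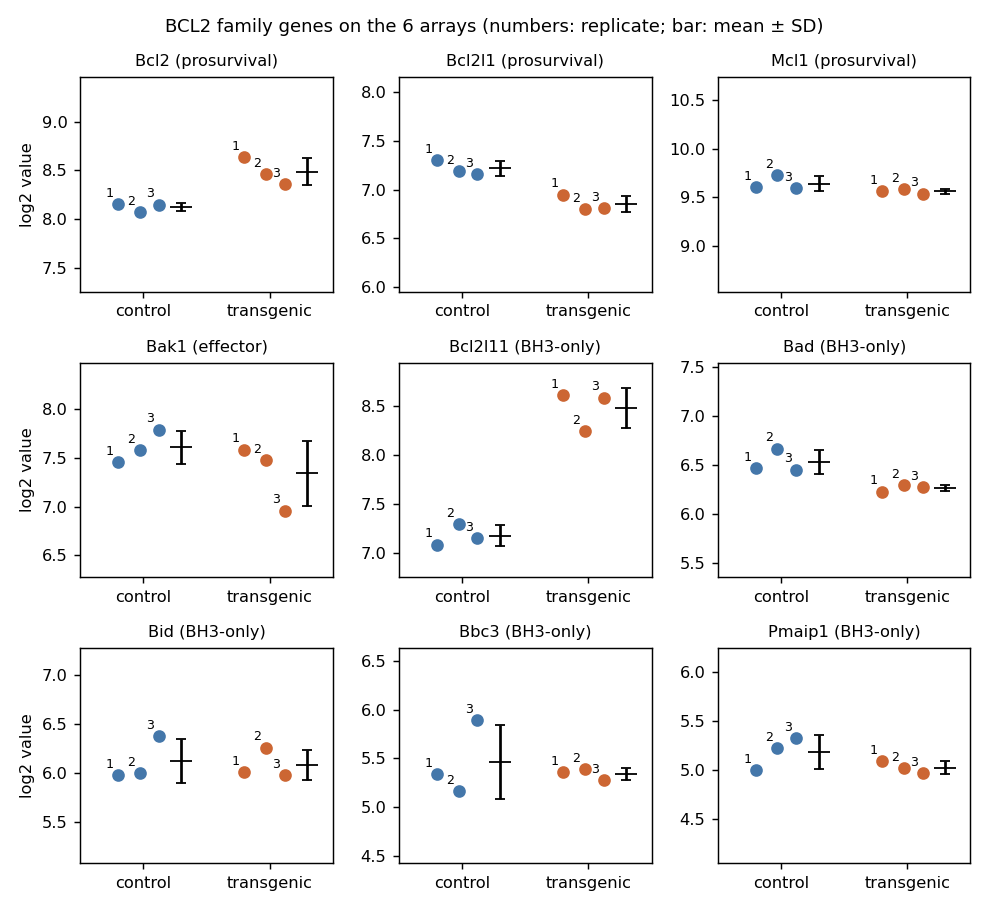
Log2 values of the 9 measured BCL2 family genes, with 1 point for each of the 3 control and 3 transgenic samples, the replicate number beside it, and the mean ± SD as a bar; every panel spans the same width of log2 units. Bcl2l11 shows the widest gap between groups, from 7.29 in the highest control to 8.25 in the lowest transgenic sample.

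Bcl2l11 encodes BIM, a BH3-only protein that binds all prosurvival members, can activate BAX and BAK directly, and is known for killing cells deprived of growth factors. Its log2 values were 7.08, 7.29 and 7.15 in control samples 1 to 3 and 8.61, 8.25 and 8.59 in transgenic samples 1 to 3. All 3 transgenic samples lay above all controls, and transgenic sample 2 was the lowest of its group. From a control mean of 7.18 ± 0.11 it rose to 8.48 ± 0.20 (SD, n = 3 each), by 1.31 on the log2 scale with an SE of 0.12 and a 95% interval of 1.04 to 1.58 (limma adjusted p = 0.000435). The rise passed the test under each of 16 alternative settings, with differences from 1.24 to 1.43 and adjusted p-values from 3.69e-05 to 0.00583.

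Bcl2l11 lies at chr2:128126038-128162547 of GRCm38.p6 on the plus strand, and the RefSeq table holds windows before 2 of its starts. The 250 bases before the first, chr2:128125788-128126037, are printed because FOXO factors are known to drive transcription of this gene. Capitals mark matches on either strand to the FOXO core GTAAACA and to the GC box GGGCGG:

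Bcl2l11 upstream: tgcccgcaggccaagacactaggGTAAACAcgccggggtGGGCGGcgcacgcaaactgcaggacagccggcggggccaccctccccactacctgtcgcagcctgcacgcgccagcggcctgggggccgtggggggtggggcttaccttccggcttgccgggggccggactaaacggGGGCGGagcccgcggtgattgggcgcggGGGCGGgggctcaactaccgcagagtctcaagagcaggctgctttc

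The window holds 1 FOXO core and 3 GC boxes and is 72% G or C. Over 32851 RefSeq windows of this length, 3.17% hold a FOXO core and 32.7% a GC box. Family windows on chromosome 18, where Pmaip1 lies, were left out of the count. It covers 15 such windows for 9 of the 10 family genes, Bax included. Of these, 2 hold a FOXO core, the one printed and 1 of Bbc3, and 10 hold a GC box. The E2F motif TTTNNCGC, present in 4.28% of all windows, matched 1 of the 15, before a start of Bcl2l1. A match is a description of letters, and binding was not measured. Among the FOXO genes themselves, Foxo1 had a log2 difference of -0.06 (adjusted p = 0.793), Foxo3 of -0.01 (0.958) and Foxo4 of -0.30 (0.195).

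Bcl2, at chr1:106538176-106714290, encodes the founding prosurvival protein of the family. Its log2 values were 8.15, 8.07 and 8.15 in control samples and 8.64, 8.46 and 8.36 in transgenic samples 1 to 3. The controls lay close together and all transgenic samples above them, with transgenic sample 1 the highest. The mean rose from 8.12 ± 0.045 to 8.49 ± 0.14 (SD, n = 3 each), or by 0.36 with an SE of 0.097 and a 95% interval of 0.14 to 0.58 (limma adjusted p = 0.0448). This 1.29-fold rise just passed the threshold. Leaving out any single array ended the call: limma's adjusted p became 0.103 and 0.107 when control 1 and control 2 were omitted, 0.0677 for control 3, 0.151 and 0.117 for transgenic 1 and transgenic 2, and 0.0534 for transgenic 3. Centring arrays on their medians (0.0709) or repeating quantile normalization (0.0577) also ended it. A second Bcl2 probe was dimmer, with a control mean of 4.27 ± 0.052 and a transgenic mean of 4.28 ± 0.13 (SD, n = 3 each), and had a difference of 0.0087 with a 95% interval of -0.21 to 0.22 (adjusted p = 0.970 over all probes with 1 symbol).

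Bcl2l1, at chr2:152758732-152833803, encodes BCL-XL and, by splicing, its proapoptotic short form. The probe does not tell these forms apart. Its log2 values were 7.31, 7.19 and 7.16 in control samples and 6.95, 6.80 and 6.81 in transgenic samples 1 to 3. Each transgenic sample lay below each control, and replicate 1 was the highest of both groups. The mean fell from 7.22 ± 0.078 to 6.85 ± 0.082 (SD, n = 3 each), and the difference of -0.36 had an SE of 0.089 and a 95% interval of -0.57 to -0.16 (limma adjusted p = 0.0335). This fall was 1.29-fold. Of the 6 fits that omit 1 array, only the one omitting control 3 kept this call. Limma's adjusted p was 0.113 and 0.0657 when control 1 and control 2 were omitted, and 0.0600, 0.121 and 0.103 for transgenic 1 to 3.

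Mcl1, the third prosurvival member, encodes a protein of short half-life on which adult heart muscle depends. Its log2 values were 9.61, 9.73 and 9.59 in control and 9.56, 9.58 and 9.54 in transgenic samples. The highest transgenic sample lay just under the lowest control. The difference was -0.08, with a 95% interval of -0.27 to 0.11 (limma adjusted p = 0.615), and a second, dimmer Mcl1 probe had -0.13 with an interval of -0.44 to 0.18 (adjusted p = 0.623 over all probes with 1 symbol). The interval of the brighter probe thus excludes a rise or fall of its signal on these arrays as large as that of Bcl2l11. The second probe lay at percentile 35.5 of all probes, which limits what it can show.

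Bak1 encodes BAK, the effector that resides on mitochondria and is held there by MCL1 and BCL-XL. Its log2 values were 7.45, 7.58 and 7.79 in control and 7.58, 7.48 and 6.96 in transgenic samples. The groups overlapped, and transgenic sample 3 lay well below the other 5 samples. The difference was -0.27 with an SE of 0.17 and a 95% interval of -0.64 to 0.11 (limma adjusted p = 0.368), and without transgenic sample 3 it was -0.08.

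Bad encodes a BH3-only protein that growth factor signalling keeps inactive through phosphorylation. Its own probe read 6.47, 6.67 and 6.45 in control and 6.23, 6.29 and 6.27 in transgenic samples. All transgenic samples lay below all controls, but the difference of -0.27 (SE 0.091, 95% interval -0.48 to -0.06) did not pass the test (limma adjusted p = 0.101). It did pass after renewed quantile normalization (-0.35, adjusted p = 0.0338). A brighter probe that the annotation assigns to both Bad and its neighbour Gpr137 read 8.12, 7.97 and 7.999 in control and 7.38, 7.50 and 7.46 in transgenic samples. That shared probe differed by -0.58 with an SE of 0.089 (limma adjusted p = 0.0203 over all 41345 probes), and how much of it comes from either gene cannot be told apart.

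Bid encodes a BH3-only protein that caspase 8 cleaves to carry death receptor signals to mitochondria. Its log2 values were 5.98, 5.99 and 6.38 in control and 6.01, 6.26 and 5.98 in transgenic samples, and the groups overlapped fully. The difference was -0.04 with a 95% interval of -0.34 to 0.26 (limma adjusted p = 0.902), and it was above 0 without control 3 (0.094), transgenic 1 (0.00042) or transgenic 3 (0.016).

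Bbc3 and Pmaip1 encode PUMA and NOXA, BH3-only proteins best known as targets of p53. Bbc3 read 5.34, 5.17 and 5.89 in control and 5.36, 5.39 and 5.28 in transgenic samples. Control sample 3 stood above the other 5, and the difference went from -0.12 (95% interval -0.50 to 0.26, limma adjusted p = 0.713) to 0.09 without it. Pmaip1 read 4.998, 5.23 and 5.33 in control and 5.09, 5.02 and 4.96 in transgenic samples. These values overlapped, and the difference was -0.16 with an interval of -0.40 to 0.08 (limma adjusted p = 0.397). The Bbc3 and Pmaip1 probes were dim, with mean levels at percentiles 39.9 and 34.2 of all genes, which limits what can be seen.

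**Figure D2:**
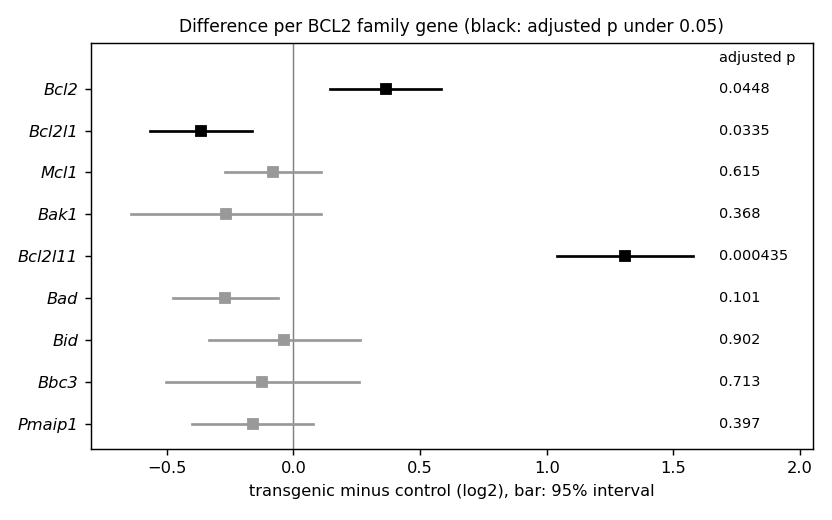
Transgenic minus control difference of each measured member on the log2 scale (square) with its 95% interval (bar) from limma, black where the adjusted p is under 0.05, and the adjusted p printed at the right. Bcl2l11 stands at 1.31, Bcl2 at 0.36 and Bcl2l1 at -0.36, and the intervals of all others but Bad cross 0.

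Set against each other within each array, the 3 called members changed unequally. These pairs were taken because their members had passed the test, so the shifts are a description, and only the shift between groups is read, since levels of different probes do not compare. Bcl2 minus Bcl2l1 shifted by 0.73 on the log2 scale from control to transgenic samples. Bcl2l1 minus Bcl2l11 shifted by -1.67, and Bcl2 minus Bcl2l11 by -0.94.

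The genes most like each called member were found by the root mean square difference of centred log2 values over the 6 arrays. Other family genes were passed over, as were symbols without a gene name and those starting with Olfr, Vmn, Snor or Mir. For Bcl2l11 the closest genes were Hebp2 (0.122), Tbc1d1 (0.122) and Rph3al (0.130), whose log2 differences were 1.30, 1.15 and 1.34. Hebp2 read 6.15, 6.44 and 5.94 in control and 7.69, 7.13 and 7.59 in transgenic samples, with transgenic sample 2 the lowest of its group, as for Bcl2l11. For Bcl2 they were Ldhal6b (0.0279), Efcab11 (0.0332) and Rbm39 (0.0332). For Bcl2l1 they were Rab12 (0.0319), Tbrg4 (0.0323) and Tollip (0.0323). Since these genes were picked for profiles like those of members called in this comparison, their own differences were fixed by the choice and are given with no test.

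The rest of the cell death machinery was followed through 6 lists of genes, from other family members to the receptors at the cell surface. Of their 76 measured genes, 4 were called higher and 11 lower, 19.7% against the 11.1% over all genes, with a median log2 difference of -0.07 against -0.03. With single arrays left out, the lists' count went from 15 to 6 without control 1 or transgenic 2 and to 7 without transgenic 1. It was 8 without transgenic 3 and 9 without control 2. In the same order, the count over all genes went from 2465 to 1378, 1171, 1217, 1553 and 1804. Without control 3 the lists kept 15 calls, and 2249 of all genes were called. At a minimum fold of 1.2, 2 list genes (Fas and Jun) and 520 of all genes were called. With the dimmest genes left out (a share of 0.333), 16 list genes were called. The count over the smaller set of all remaining genes then rose to 3019. The shares of 19.7% and 11.1% were not matched for signal level, so they do not set the lists apart from other genes.

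Among other prosurvival genes, 0 of 4 were called by limma, and 0 had an unadjusted p under 0.05, where 25.4% of all genes did. Bcl2l2, which encodes BCL-W, had a difference of 0.06 (adjusted p = 0.717). Bcl2l10 had -0.16 (0.342), and Bcl2a1a, whose family of near-identical copies can share signal, 0.29 (0.380). Apart from Bcl2l2, these probes were dim, which limits what can be seen. Their mean levels lay at percentiles 22.9 (Bcl2l10), 34.2 (Bcl2a1a) and 18.8 (Bcl2a1c) of all genes.

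Among 9 further effector, BH3-only and related genes, 1 rose and 1 fell, beside 5.35% called higher and 5.76% lower over all genes. Bik, a BH3-only protein of the endoplasmic reticulum, went from 7.63 ± 0.079 to 8.004 ± 0.083 (SD, n = 3 each), a rise of 0.37 (limma adjusted p = 0.0315). Bcl2l13, a mitochondrial family member linked to mitophagy, went from 9.22 ± 0.019 to 8.86 ± 0.13 (SD, n = 3 each), a difference of -0.36 (limma adjusted p = 0.0420). Bcl2l13, at chr6:120836206-120892842, is the direct neighbour of Bid, whose difference was -0.04. Bnip3, a mitophagy receptor induced by hypoxia, had -0.22 (limma adjusted p = 0.325). The dim probe of Bcl2l15, at percentile 18.7 of all genes, had -0.13 (0.421). Bok, an effector-like protein, had 0.02 (0.914), and Bmf, a BH3-only protein held at the cytoskeleton, -0.06 (0.775). The Bcl2l13 call was lost on leaving out any of the 6 arrays (adjusted p from 0.0612 to 0.129), and that of Bik on leaving out any but control 3 (0.0642 to 0.107). Bik also lost its call with quantile normalization repeated (0.0679) or arrays centred on their medians (0.0503).

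Of 15 genes that act after cytochrome c release, 2 rose and 2 fell, beside 5.35% called higher and 5.76% lower over all genes. Casp9, the initiator caspase of the apoptosome, rose from 7.20 ± 0.072 to 7.62 ± 0.032 (SD, n = 3 each), or by 0.41 (limma adjusted p = 0.0156). Casp6, an executioner caspase, rose by 0.46 (adjusted p = 0.0412). The fallers are mitochondrial proteins that can act on nuclear DNA when released: Aifm1, apoptosis-inducing factor, which also supports the respiratory chain, went from 8.64 ± 0.12 to 7.91 ± 0.22 (SD, n = 3 each), a fall of 0.74 (limma adjusted p = 0.00774). Endog, endonuclease G, fell by 0.42 (adjusted p = 0.0434). Dffb, the caspase-activated DNase, had 0.35 (adjusted p = 0.0941), and Diablo, which blocks inhibitors of caspases, -0.24 (0.134). Cycs, cytochrome c itself, had -0.06 (0.760), and Apaf1, the apoptosome scaffold, -0.01 (0.961).

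Aifm1 kept its call on leaving out any single array and lost it at a minimum fold of 1.2 (adjusted p = 0.0828). Casp9 lost it without control 1 or any of transgenic samples 1 to 3 (adjusted p from 0.0539 to 0.0644), Casp6 without any array but control 2 (0.0850 to 0.128) and with centred arrays (0.0716), and Endog without any but control 3 (0.0756 to 0.149).

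Of 8 mitochondrial membrane genes, 1 fell, beside 5.76% called lower over all genes. Marchf5, a ubiquitin ligase of the outer membrane that helps turn over MCL1 with NOXA, went from 9.03 ± 0.041 to 8.62 ± 0.052 (SD, n = 3 each), a difference of -0.41 (limma adjusted p = 0.0152). Omitting control 1 or transgenic 2 ended that call (adjusted p from 0.0611 to 0.0696). Ppif, cyclophilin D of the permeability transition, had -0.27 (adjusted p = 0.0852), and the channel gene Vdac1 -0.21 (0.130). Vdac2, the channel that brings BAK to mitochondria, had 0.01 (0.960).

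Of 12 measured genes of the death receptor route, 2 were called lower and 0 higher, beside 5.76% and 5.35% of all genes. Their differences were negative for 10 of 12, beside 56.7% of all genes. Fas, the receptor for FAS ligand and a p53 target, read 7.23, 7.04 and 6.89 in control and 6.10, 5.98 and 6.13 in transgenic samples. All transgenic samples lay below all controls. The difference of -0.98 had an SE of 0.11 (limma adjusted p = 0.00102) and passed under all 16 alternatives. Casp8, the caspase these receptors activate and which cleaves BID, fell by 0.45 (adjusted p = 0.0244), a call lost on leaving out any array but control 3 (0.0622 to 0.0818). Tnfsf10, the ligand TRAIL, had -0.48 (0.0794), and Tnfrsf1a, a receptor for TNF, -0.27 (0.108).

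Of 28 measured genes that switch on, bind or turn over BCL2 family proteins, 1 rose and 5 fell. Over all genes 5.35% were called higher and 5.76% lower. Jun, a stress-responsive transcription factor that can induce Bcl2l11 in neurons, went from 9.87 ± 0.19 to 9.04 ± 0.19 (SD, n = 3 each), a difference of -0.84 (limma adjusted p = 0.00506), which passed under all 16 alternatives. Dynll2, the dynein light chain that tethers BMF, fell by 0.64, and its relative Dynll1, which tethers BIM, had 0.07 (adjusted p = 0.803). Fbxw7, part of a ubiquitin ligase for MCL1, fell by 0.54, with a limma adjusted p of 0.00976. Trp63, a p53 relative, fell by 0.57 at a low level of 5.57 ± 0.044 in control samples (SD, n = 3). At a minimum fold of 1.2 the calls of Dynll2 (adjusted p = 0.0909), Fbxw7 (0.226) and Trp63 (0.131) were lost.

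The ubiquitin ligase Mdm2, a restraint on p53 and itself a p53 target, fell by 0.32 (limma adjusted p = 0.0402), and Mdm4, a related restraint on p53, rose by 0.35 (0.0430). The Mdm4 call was lost on leaving out any of the 6 arrays (0.0588 to 0.146) and with centred arrays (0.0895), and the Mdm2 call on leaving out any but control 3 (0.0870 to 0.129). Trp53 was not analysed here. Atf4, a stress-response factor that can raise Pmaip1 and Bbc3, had 0.27 (0.0730), and Ywhag, a 14-3-3 protein of the kind that sequesters BAD, -0.26 (0.130).

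**Figure D3:**
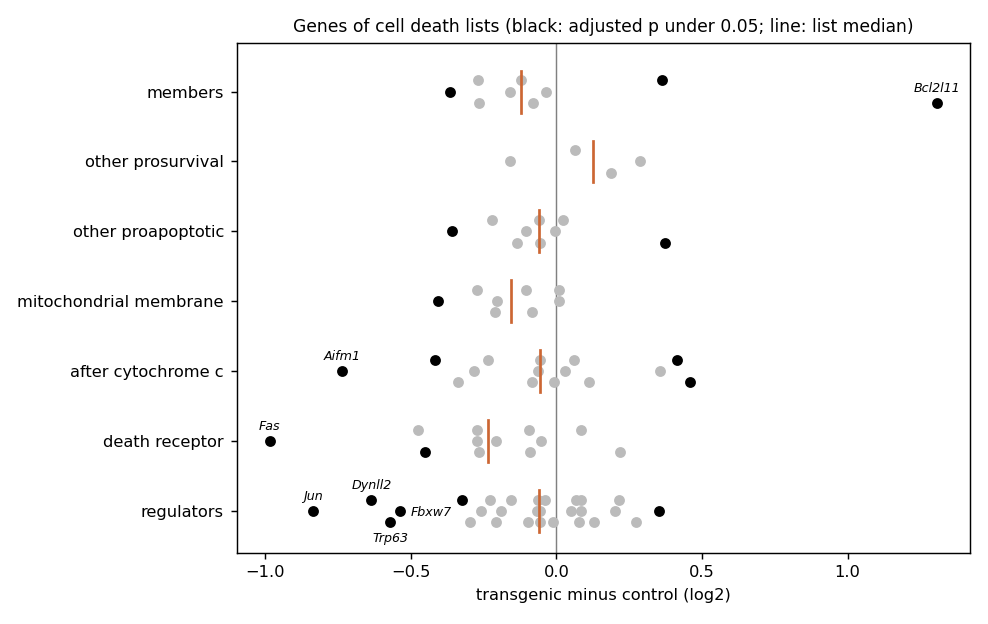
Transgenic minus control log2 difference of every measured gene of the BCL2 set and the 6 other cell death lists, 1 point per gene (black where the limma adjusted p is under 0.05, grey otherwise), with the list median as a line and called genes beyond 0.5 named. Bcl2l11 at 1.31 is the furthest point on the right, and Fas at -0.98 the furthest on the left.

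Other measured features moved with genotype in the same RNA. For scale, 5.76% of all genes were called lower and 5.35% higher. The mean log2 value of 10 endothelial markers went from between 9.10 and 9.19 in control to between 8.68 and 8.91 in transgenic samples, with Pecam1, Cdh5, Tie1, Emcn, Vwf and Esam, 6 of 10, called lower. That of 10 macrophage markers went from between 6.95 and 7.07 to between 6.27 and 6.50, with Csf1r, Adgre1, C1qa, C1qb, C1qc, Mrc1 and Fcgr1, 7 of 10, lower. That of 7 smooth muscle and pericyte markers went from between 9.32 and 9.40 to between 8.92 and 9.13, with Acta2, Pdgfrb, Rgs5 and Kcnj8, 4 of 7, lower. That list did not move as one: the pericyte marker Cspg4 had a difference of 0.33 (95% interval 0.11 to 0.55, limma adjusted p = 0.0606) with separated groups, and Myh11 had -0.08. In whole hearts, fewer cells of a type and less RNA per cell cannot be told apart. All 9 measured cell division genes rose, by 0.50 (Aurkb) to 1.01 (Birc5, also an inhibitor of apoptosis). Of 8 fibroblast markers Postn alone was called, as higher, and 0 of 7 lymphocyte markers were called, with 1 at an unadjusted p under 0.05. The array scale has no 0, so no marker can be given as absent. The part of these shifts in the differences of Bcl2, Bcl2l1, Bcl2l11, Fas, Casp8 and the other genes above was not tested.

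**Figure D4:**
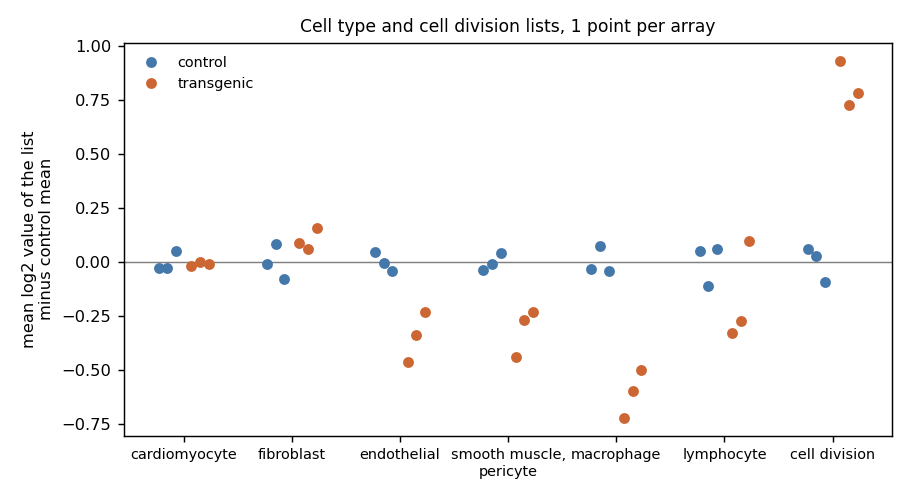
Mean log2 value of each marker list minus its mean in control samples, with 1 point for each control and transgenic sample. Transgenic samples lie below all controls for the endothelial, smooth muscle and pericyte, and macrophage lists, above all controls for the cell division list, and among them for the cardiomyocyte list.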

How the data were processed

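Mouse heart RNA was measured on 6 Affymetrix arrays, 3 per group; n counts arrays. What the authors deposited is a table of log2 values; oligo, RMA and limma appear, unversioned, in the submitters' processing notes. How background was corrected and whether probes were filtered is not stated in the labels used here.

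Of 41345 probes, 23521 carried 1 gene symbol in the platform annotation, 1814 several and 16010 none. Coordinates and sequences come from RefSeq (GRCm38.p6), which held 21994 of the 22180 genes by identifier. All genes were fitted with limma 3.58.1 in R 4.3.3 (lmFit, eBayes, two-sided, no covariates, no filter), with Benjamini-Hochberg adjustment and a threshold of 0.05. The script was tested on simulated data, where it recovered 0% of 1.25-fold, 54% of 1.5-fold, 80% of 2-fold and 100% of 4-fold changes. Far fewer genes changed in that simulation than were called in the data, so these shares do not carry over directly. Small changes can thus be missed, and a gene not called is not shown to be unchanged. Members and lists were chosen with earlier results of these data known. Named genes were the members, called genes of the lists, up to 2 more per cell death list by smallest p, and the closest profiles. Bcl2l2, Bok, Bmf, Cycs, Apaf1, Vdac2, Dynll1, the FOXO genes and the probe shared with Gpr137 were added after their values were seen. Alternatives changed normalization, probes, dim-gene filter, variance model, array weights, minimum fold and replicate block, or left out each array. Testing all 41345 probes was added after seeing the data. The number of arrays limits the precision.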

Additional observations from a re-analysis of the deposited data

How the results depend on the processing

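Bcl2l11 kept its direction and call under all 16 alternatives. Bcl2 kept its direction but lost its call with quantile normalization repeated (0.33), arrays centred on their medians (0.33), the mean of its probes (0.19), the replicate block (0.36, limma adjusted p = 0.0678), a minimum fold of 1.2 (0.36) and all probes tested (0.36), and ranged from 0.29 to 0.43 on leaving out single arrays. Bcl2l1 lost its call with the replicate block (-0.36, adjusted p = 0.0503), the minimum fold (-0.36) and all probes tested (-0.36), and ranged from -0.41 to -0.32 on leaving out single arrays. Bad gained a call with repeated quantile normalization (-0.35). Bid turned sign with array weights (0.038) and ranged from -0.12 to 0.094 on leaving out single arrays, and Bbc3 from -0.27 to 0.089. The members called numbered 1 with the block, the minimum fold or all probes tested, and 1 to 2 without single arrays. Over all genes 520 were called at the minimum fold and 1171 to 2249 without single arrays. In the 6 cell death lists 2 were called at the minimum fold, 8 with all probes tested and 6 to 15 without single arrays, against 15. The median difference over all genes was -0.07 with centred arrays and -0.06 with repeated quantile normalization. Deviations of same-numbered arrays from their group means correlated at 0.0163, -0.130 and 0.0138, and those of other pairs at -0.111 to 0.108. With 3 arrays per group, these values cannot decide whether the replicate numbers mark a pairing. The block called 1996 genes against 2465. Unless the construction of a setting shows it, the cause was not tested. Small differences in a few arrays and dim probes limit what can be seen.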
